A study of Mus musculus with 12 samples.

Results

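The genes described here, 40 in number, belong to the interferon response and to MHC class I presentation. Each was found in both count tables by an Ensembl identifier that maps to its symbol, of 54446 identifiers in all. They fall by role into 3 RNA sensors, 6 signalling genes and regulators, 16 antiviral effectors and other induced genes, 6 interferon-inducible GTPases and 9 genes of MHC class I presentation. RNA sequencing covered 4 groups of 3 libraries: the hippocampus of Syt14 knockout (Syt14-/-) mice, the hippocampus of wild-type (Syt14+/+) mice, the cerebellum of the same knockout mice and the cerebellum of the same wild-type mice. The 6 mice are separate animals, so p-values between genotypes within a tissue measure the spread between animals. Tissue comparisons and the difference of effects were fitted without an animal term, so their p-values treat the libraries of an animal as independent. The study asks what Syt14, a synaptotagmin gene, does in mood disorder and motor coordination. The labels name no treatment. Strain, age, sex, the altered part of Syt14 and the number of founder lines were not given in the sources used here.

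Interferons are secreted proteins that cells release after they sense foreign or misplaced nucleic acid. They bind receptors that switch on transcription factors, Stat2 and Irf9 among them, which bind the interferon-stimulated response element (ISRE) in the promoters of many antiviral genes. Type II interferon and these factors also raise MHC class I, the surface molecule made of a heavy chain (H2-D1 and H2-K1 in mice) and beta-2 microglobulin (B2m), which displays peptides cut by the proteasome and pumped into the endoplasmic reticulum by Tap1 and Tap2. In the brain, microglia, endothelium and border cells express these genes more readily than neurons do, and neuronal MHC class I has been tied to synapse remodelling.

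Libraries held 24355572 to 34971359 counts, and 3 counts, taken as the floor, equal 0.0858 to 0.123 CPM, a gene's counts scaled to a fixed library total. Floors cover counting error only. Syt14 was read at 29.2, 28.0 and 30.6 CPM in knockout hippocampus, against 38.5, 38.9 and 38.1 CPM in wild-type hippocampus, and at 30.6, 30.7 and 30.3 CPM in knockout cerebellum, against 33.8, 33.3 and 38.2 CPM in wild-type cerebellum. Its level was thus lower in each knockout library of a tissue than in each wild-type one, but its transcript was still read (log2 fold change -0.39 ± 0.06 and -0.20 ± 0.06 SE; edgeR adjusted p = 0.686 and 0.644). The summed level of 6 hippocampal neuron markers was 888 to 986 CPM over the hippocampus libraries and 273 to 305 CPM over the cerebellum libraries, and that of 6 cerebellar neuron markers 6.23 to 7.47 CPM and 3795 to 4372 CPM. Both tissues thus carried the markers of their labels. Some libraries stood apart in markers of neighbouring tissue. The hippocampus of wild-type animal 2 had 290 CPM over 17 markers of meninges and fibroblasts, where the other 5 hippocampus libraries had 133 to 166 CPM. The cerebellum of knockout animal 3 had 26.6 CPM over 7 choroid plexus markers, where the other 5 cerebellum libraries had 969 to 2663 CPM. The cerebella of knockout animals 1 and 2 had 74.9 and 103 CPM over 8 brainstem markers, where the other cerebellum libraries had 58.3 to 68.9 CPM. Column names of the count tables carry a tag shared by all hippocampus libraries and a different one shared by all cerebellum libraries. What the tag stands for was not given, and tissue and tag cannot be told apart.

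Promoter sequence was not used to choose the genes. RefSeq promoters of build GRCm38.p6, from 250 bases before to 50 bases after a gene's start, were found for 31 of the 40 genes. The ISRE core, searched as the word GAAA repeated after a gap of 2 bases (TTTC on the other strand) with overlapping matches kept, was in the promoters of 15 of the 31 (48.4%). Over all genes with a promoter it was in 1079 of 27025 (3.99%). The 15 were B2m, Bst2, Ddx58, Gbp2, Gbp3, Gbp7, Ifih1, Ifit1, Ifit3, Ifit3b, Igtp, Irgm1, Isg15, Rsad2 and Stat2. The gamma-activated site TTCNNNGAA, a motif of the type II interferon response that reads the same on both strands, was in 6 of the 31 (19.4%), against 9.55% of all genes. A match describes the letters in this window and is not a measured binding site. Only the exact repeated word was counted as the core, so a gene without it may still hold a looser form of the element.

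The core is shown in capitals, with 15 bases on either side, for 8 of these 15 genes, chosen to show single, paired and overlapping copies. Isg15 is shown for its run of 3 overlapping cores, 78 to 57 bases before the start (chr4:156200860-156200911, minus strand).
Isg15: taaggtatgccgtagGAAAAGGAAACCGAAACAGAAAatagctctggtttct
Ifit1: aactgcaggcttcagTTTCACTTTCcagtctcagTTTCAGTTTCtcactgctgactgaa
Ifit3: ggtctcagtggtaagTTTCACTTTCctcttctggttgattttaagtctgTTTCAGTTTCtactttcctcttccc
Ifit3b: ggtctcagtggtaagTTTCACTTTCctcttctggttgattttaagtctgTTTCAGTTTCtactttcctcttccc
Bst2: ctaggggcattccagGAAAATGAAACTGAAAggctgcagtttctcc
Igtp: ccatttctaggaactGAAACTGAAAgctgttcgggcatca
Stat2: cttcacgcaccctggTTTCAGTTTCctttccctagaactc
B2m: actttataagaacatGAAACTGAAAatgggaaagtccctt

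Ifit1 (chr19:34640770-34640828), Ifit3 (chr19:34583358-34583431), Ifit3b (chr19:34607754-34607827), Igtp (chr11:58199507-58199546), Stat2 (chr10:128270261-128270300) and B2m (chr2:122147533-122147572) are on the plus strand and Bst2 (chr8:71537572-71537617) on the minus strand. The 74 bases of Ifit3 and Ifit3b are identical, and 51.2% of the 50-base words in the Ifit3 transcripts also occur in Ifit3b, so the levels of these neighbours are uncertain where the counting could split their reads. H2-D1 and H2-K1 do not hold the repeated word in this window. Their promoters are shown over their best ungapped match, between its first and last long identical runs, because the levels of these heavy chain genes differed between tissues to unlike degrees, with capitals at the bases that differ. Over this stretch, chosen for its match, they differ at 14 of 169 bases (91.7% identical). Whether these bases bear on the levels was not tested.
H2-D1: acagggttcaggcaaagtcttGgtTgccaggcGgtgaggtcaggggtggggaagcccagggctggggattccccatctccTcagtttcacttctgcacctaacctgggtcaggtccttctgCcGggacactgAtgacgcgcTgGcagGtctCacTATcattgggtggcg
H2-K1: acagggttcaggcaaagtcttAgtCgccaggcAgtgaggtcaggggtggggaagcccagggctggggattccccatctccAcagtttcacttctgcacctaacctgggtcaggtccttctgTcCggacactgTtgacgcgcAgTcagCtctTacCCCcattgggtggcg

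H2-D1 lies at chr17:35262860-35263028 on the plus strand and H2-K1 at chr17:34000353-34000521 on the minus strand. Tap1 and Psmb9 are divergent neighbours whose promoter windows share 275 bases (chr17:34187306-34187580) and whose annotated exons overlap by 212 bases on opposite strands. The strand setting of the counting was not given in the sources used here, so reads of the overlap cannot be assigned with certainty.

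The genes were read at low to moderate level in all 4 groups. Mean levels under 1 CPM were seen for 5 of the 40 genes in knockout hippocampus, 3 in wild-type hippocampus, 2 in knockout cerebellum and 4 in wild-type cerebellum. Per kilobase of exon, the highest levels in hippocampus belonged to B2m, at 50.9 ± 3.3 CPM per kb in knockout and 59.0 ± 5.3 in wild type (SD, n = 3 each). Ifi27, a small interferon-induced membrane protein, followed at 16.0 ± 0.9 in knockout and 15.6 ± 0.7 in wild type. H2-D1 had 9.85 ± 0.82 in knockout and 12.4 ± 1.8 in wild type, and Psmb10, an immunoproteasome subunit, 9.65 ± 0.99 in knockout and 10.8 ± 0.7 in wild type. H2-D1 and Psmb10, neighbours in this order, did not differ beyond their spread. In cerebellum the order was B2m, at 63.3 ± 3.0 CPM per kb in knockout and 61.2 ± 2.9 in wild type, then H2-D1, at 48.0 ± 3.2 in knockout and 48.9 ± 2.0 in wild type, then Stat2, at 18.5 ± 1.8 in knockout and 18.9 ± 0.9 in wild type. Ifi27 followed in cerebellum at 11.7 ± 1.3 CPM per kb in knockout and 13.3 ± 1.6 in wild type. At the bottom, Mx1, an antiviral GTPase, had 0 to 0.375 CPM over the 12 libraries, or 0 to 11 counts. It was the 1 gene of the 40 that failed the count filter in every comparison, so 39 were tested. The ligands themselves were hardly read: 12 interferon and related cytokine genes together had 0 to 4 counts in a library.

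**Figure D1:**
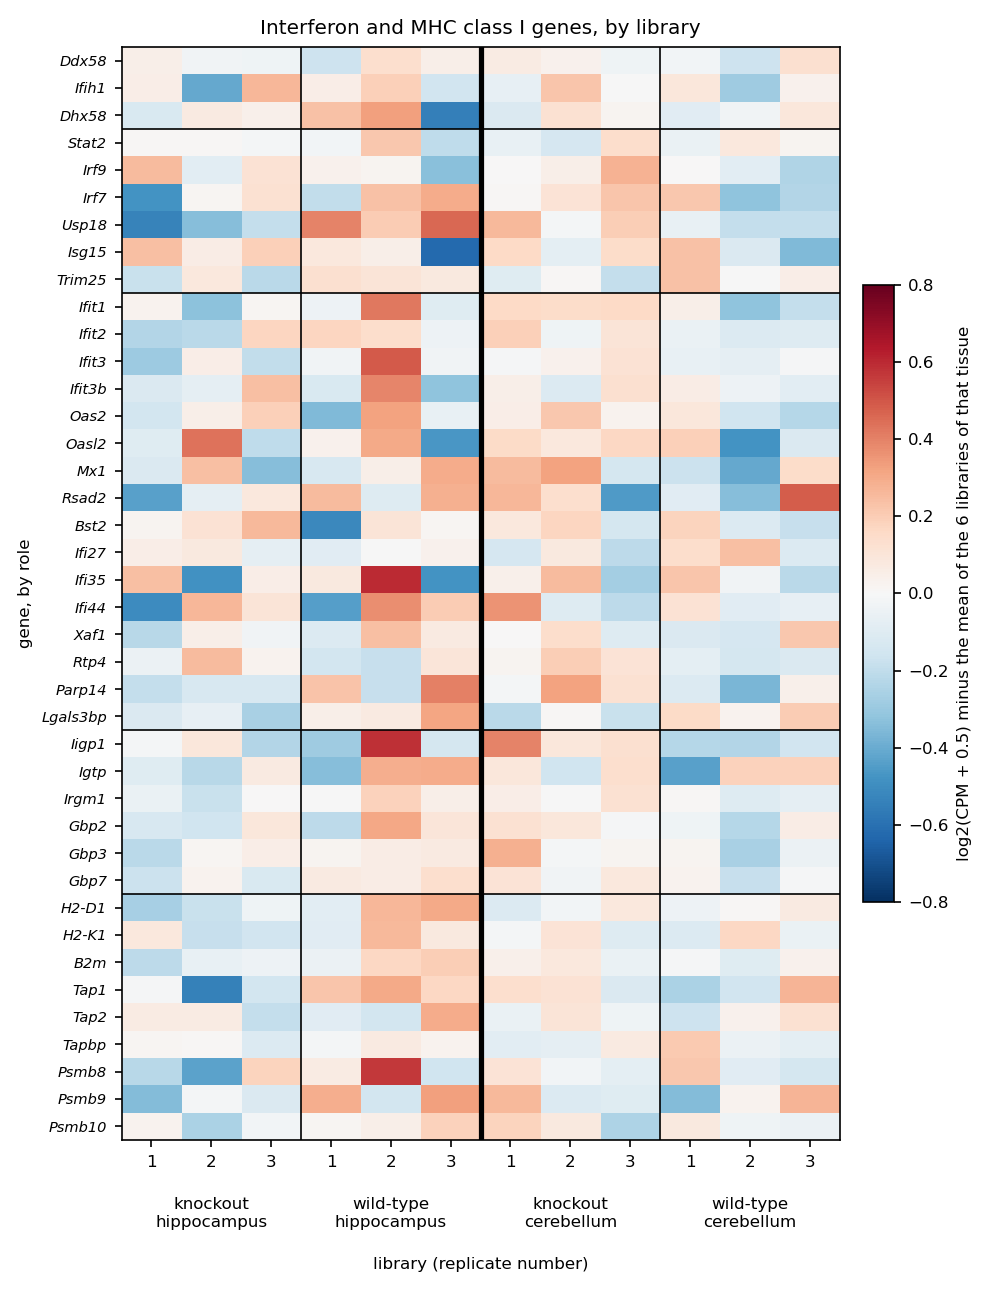
Each cell is log2(CPM + 0.5) of 1 gene in 1 library minus the mean of the 6 libraries of that tissue, with genes in rows by role and libraries in columns, knockout left of wild type in each tissue. The hippocampus of wild-type animal 2 was the highest of its tissue for 17 of 39 tested genes, and the cerebellum of the same animal was the lowest of its tissue for 17 of 39.

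In the hippocampus, most genes of the response lay slightly lower in knockout than in wild-type animals, and none passed the test. Of 39 genes, 31 had a log2 fold change below 0, where 49.2% of all genes did, and the median was -0.17, against 0.0017 over all 17693 genes tested. The edgeR quasi-likelihood test with Benjamini-Hochberg adjustment over all genes called 0 of the 39, and its percentage of all genes called was 0%. At an unadjusted p under 0.05 there were 5 genes, all lower (Usp18, H2-D1, B2m, Lgals3bp and Tap1). Of all genes, this threshold took in 313 in the lower direction (1.77%) and 454 in the higher. Usp18, Lgals3bp, Gbp7 and Tap1 had groups that did not overlap, all 4 lower, against 4.68% of all genes in that direction. Counted in either direction, groups did not overlap for 10.3% of the 39 and for 9.81% of all genes. DESeq2 called 4 genes and limma-voom 0 of all tested, none of them a member. Without the filter on low counts 1 member, H2-D1, was called (adjusted p = 0.0264). Without wild-type animal 2 the median was -0.078 and 24 of 39 genes lay below 0.

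**Figure D2:**
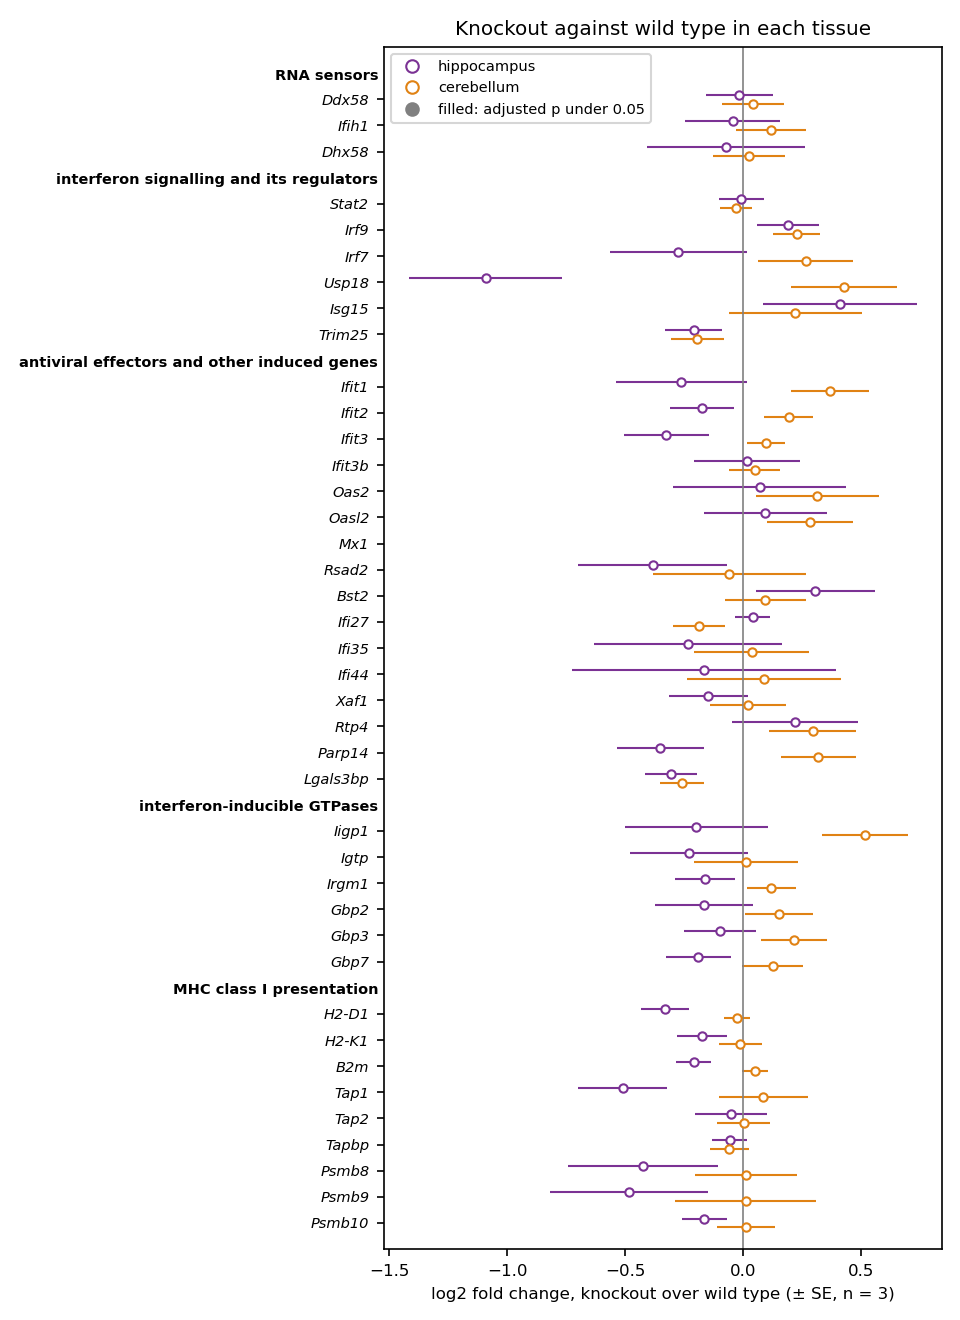
Points are log2 fold changes of knockout over wild type with SE (n = 3 against 3), in hippocampus (purple) and cerebellum (orange), genes in rows by role; Mx1 was not tested. No point is filled, since no gene had an adjusted p under 0.05, and Usp18 lies farthest from 0 in hippocampus at -1.09.

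The 3 RNA sensors, which detect viral RNA in the cytosol, differed little (median -0.045). Ddx58 encodes RIG-I and had 5.62, 5.30 and 5.30 CPM in knockout hippocampus, against 4.80, 6.0 and 5.63 CPM in wild-type hippocampus. Ifih1 encodes MDA5 and had 4.49, 3.11 and 5.27 CPM in knockout, against 4.48, 4.98 and 3.82 CPM in wild type. Dhx58 encodes LGP2, a regulator of the other two, and had 1.17, 1.41 and 1.38 CPM in knockout, against 1.65, 1.79 and 0.748 CPM in wild type. All 3 sets of groups overlapped, and each of the 3 changed sign when wild-type animal 2 was left out.

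Among the 6 signalling genes, 4 lay below 0 with a median of -0.11. Usp18, which removes Isg15 from proteins and blocks the type I interferon receptor, had 0.461, 0.601 and 0.723 CPM in knockout hippocampus, against 1.34, 1.10 and 1.42 CPM in wild-type hippocampus. Every knockout library was below every wild-type library, with a log2 fold change of -1.09 ± 0.32 (2.13-fold lower; edgeR adjusted p = 0.995). Usp18 rests on few reads, 148 counts over the 6 hippocampus libraries, and its log2 fold change ranged from -1.26 to -0.95 over the 13 other settings tried. Usp18 lies on chromosome 6 (ENSMUSG00000030107, chr6:121245906-121270917, plus strand), and none of its 50-base words occurs in another gene. Trim25, the ubiquitin ligase that activates RIG-I, had 7.59, 9.19 and 7.40 CPM in knockout, against 9.51, 9.35 and 9.17 CPM in wild type. Irf9 had 14.3, 11.2 and 13.0 CPM in knockout, against 12.3, 12.2 and 9.36 CPM in wild type. The groups overlapped for both. Stat2 was near 0 (log2 fold change -0.0071), Isg15, a ubiquitin-like tag, had 0.41 ± 0.32 and Irf7, an amplifier of interferon production, -0.27 ± 0.29.

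The 15 tested effectors split into 9 below and 6 above 0, with a median of -0.16. Lgals3bp, a secreted galectin-binding glycoprotein, had 10.4, 10.8 and 9.40 CPM in knockout hippocampus, against 11.8, 11.97 and 14.2 CPM in wild-type hippocampus. The groups did not overlap (log2 fold change -0.31 ± 0.11; edgeR adjusted p = 0.995). Parp14, an ADP-ribosyltransferase, had 3.44, 3.61 and 3.61 CPM in knockout, against 4.76, 3.46 and 5.43 CPM in wild type. Ifit3, which binds other Ifit proteins on viral RNA, had 4.57, 5.94 and 4.92 CPM in knockout, against 5.58, 8.21 and 5.59 CPM in wild type, where animal 2 was the highest. Both had overlapping groups. The remaining 12 effectors tested ran from -0.38 (Rsad2, the antiviral enzyme viperin) to 0.31 (Bst2, which tethers budding virus).

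All 6 interferon-inducible GTPases, which act at membranes in the defence against intracellular pathogens, had log2 fold changes below 0, with a median of -0.18. Gbp7 had 4.70, 5.48 and 4.89 CPM in knockout hippocampus, against 5.66, 5.62 and 5.94 CPM in wild-type hippocampus, with groups that did not overlap. Irgm1 had 6.33, 5.76 and 6.58 CPM in knockout, against 6.56, 7.52 and 6.81 CPM in wild type, and overlapped narrowly. Igtp had 2.10, 1.87 and 2.41 CPM in knockout, against 1.69, 2.89 and 2.91 CPM in wild type. Igtp overlaps Irgm2 on the same strand and shares 11.8% of its 50-base words with other genes, so its level is uncertain. None of the 6 passed the test (smallest edgeR unadjusted p = 0.192, Gbp7).

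All 9 genes of MHC class I presentation also lay below 0, with a median of -0.21, and their summed level was 139, 137 and 142 CPM in knockout hippocampus, against 145, 168 and 169 CPM in wild-type hippocampus. H2-D1, a class I heavy chain (ENSMUSG00000073411, chr17:35262730-35267499, plus strand), had 23.5, 25.0 and 27.7 CPM in knockout, against 26.8, 34.2 and 35.1 CPM in wild type. The groups overlapped by 1 library, with a log2 fold change of -0.33 ± 0.10 (1.26-fold lower; edgeR adjusted p = 0.995). H2-D1 shares 12.8% of its 50-base words with other genes of the family. B2m had 40.6, 45.1 and 45.7 CPM in knockout, against 45.6, 52.8 and 53.9 CPM in wild type (-0.21 ± 0.07), again overlapping in 1 library. Tap1, a subunit of the peptide pump, had 3.61, 2.33 and 3.24 CPM in knockout, against 4.32, 4.60 and 4.13 CPM in wild type, with no overlap (-0.51 ± 0.19). H2-K1, the other heavy chain, had 23.2, 19.1 and 19.6 CPM in knockout, against 20.5, 26.3 and 23.1 CPM in wild type (-0.17 ± 0.11). The immunoproteasome subunits Psmb8, Psmb9 and Psmb10 had -0.43 ± 0.32, -0.48 ± 0.33 and -0.17 ± 0.10, while Tap2 and the loading factor Tapbp were near 0 at -0.052 and -0.058.

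**Figure D3:**
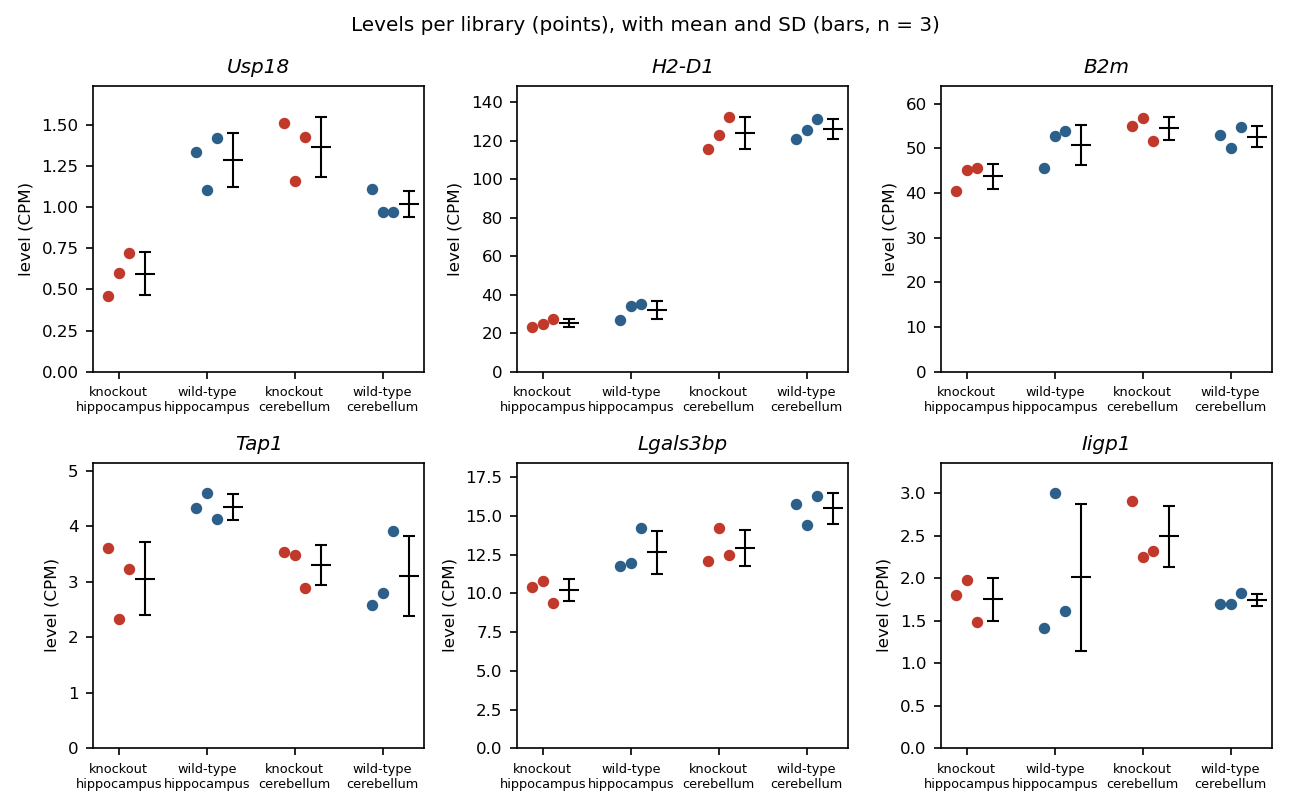
Points are levels in CPM per library of 6 genes in the 4 groups, knockout (red) left of wild type (blue) in each tissue, with the mean and SD beside them (n = 3). Usp18 lies lower in every knockout than wild-type hippocampus library and higher in every knockout than wild-type cerebellum library, and H2-D1 is 3.93-fold lower in wild-type hippocampus than in wild-type cerebellum.

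In the cerebellum the balance of signs was the other way, with small differences that did not pass the test either. Of 39 genes, 31 had a log2 fold change above 0, where 51% of all genes did, and the median was 0.085, against 0.0025 over all 17733 genes. The edgeR test called 2 of all genes (0.0113%) and 0 of the 39. At an unadjusted p under 0.05 there were 3 genes, Irf9 and Iigp1 higher and Lgals3bp lower, against 6.77% of all genes in either direction. Groups did not overlap for 6 genes that were higher (Irf9, Usp18, Ifit1, Ifit2, Rtp4 and Iigp1), against 6.47% of all genes, and for 1 that was lower (Lgals3bp), against 5.4%. DESeq2 called 38 genes and limma-voom 2 of all tested, none of them a member. With the replicate number as a block the median was 0.050, with 31 of 39 above 0 and none called, while 36 of all genes were called. It was 0.052 by limma-voom. With 1 animal left out, the median was 0.156 without wild-type animal 1, 0.137 without knockout animal 3, whose cerebellum was low in choroid plexus markers, 0.044 without wild-type animal 2 and 0.043 without knockout animal 1.

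The largest of these differences was in Iigp1, a GTPase that coats parasite vacuoles, which had 2.91, 2.25 and 2.32 CPM in knockout cerebellum, against 1.70, 1.70 and 1.82 CPM in wild-type cerebellum. Its log2 fold change was 0.51 ± 0.18 (1.43-fold higher; edgeR adjusted p = 0.691). Gbp3 had 6.81, 5.42 and 5.58 CPM in knockout, against 5.58, 4.49 and 5.29 CPM in wild type, and all 6 GTPases lay above 0 (median 0.14). In the signalling group, Irf9 had 16.4, 16.96 and 20.01 CPM in knockout, against 16.4, 15.5 and 13.8 CPM in wild type (0.23 ± 0.10). Irf9 overlaps Rnf31 on the same strand by 123 bases. Usp18 had 1.51, 1.16 and 1.43 CPM in knockout, against 1.11, 0.969 and 0.972 CPM in wild type (0.43 ± 0.22), with groups that did not overlap.

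Among the effectors, 12 of 15 lay above 0 in the cerebellum. Ifit1, which binds viral RNA caps, had 3.13, 3.10 and 3.12 CPM in knockout cerebellum, against 2.85, 2.10 and 2.34 CPM in wild-type cerebellum (0.37 ± 0.17; edgeR adjusted p = 0.736). Lgals3bp lay below 0, as did Ifi27 and Rsad2. It had 12.1, 14.2 and 12.4 CPM in knockout, against 15.8, 14.4 and 16.3 CPM in wild type (-0.26 ± 0.09; edgeR adjusted p = 0.691). It was thus lower in all knockout libraries of both tissues, and passed the test in neither. The RNA sensors were close to 0 (median 0.042), with Ifih1 at 4.89, 6.10 and 5.14 CPM in knockout, against 5.5, 4.14 and 5.29 CPM in wild type, and Ddx58 at 5.08, 4.97 and 4.71 CPM in knockout, against 4.75, 4.25 and 5.35 CPM in wild type.

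MHC class I presentation hardly differed in the cerebellum, with a median of 0.010 over 9 genes. B2m had 54.9, 56.8 and 51.6 CPM in knockout cerebellum, against 53.0, 49.9995 and 54.9 CPM in wild-type cerebellum. H2-D1 had 116, 123 and 133 CPM in knockout, against 121, 126 and 131 CPM in wild type. H2-K1 had 26.0, 28.4 and 24.5 CPM in knockout, against 24.3, 29.6 and 25.4 CPM in wild type, and Tapbp had 27.9, 28.0 and 31.0 CPM in knockout, against 34.2, 28.6 and 27.9 CPM in wild type. All 4 had overlapping groups.

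The difference between these effects, hippocampus minus cerebellum, was tested over all 12 libraries, without an animal term. The edgeR test called 2 of 19027 genes (0.0105%) and none of the 39. The difference was below 0 for 35 of the 39, where 50.8% of all genes were, with a median of -0.25. Its largest value was in Usp18, at -1.52 ± 0.35 (unadjusted p = 0.00066, edgeR adjusted p = 0.701). Of 16593 genes tested in both tissues, 84 (0.506%) had groups that separated in opposite directions, and Usp18 was the only member among them. H2-D1 had -0.31 ± 0.12, B2m -0.26 ± 0.10, Parp14 -0.67 ± 0.25, Tap1 -0.60 ± 0.27 and Ifit3 -0.42 ± 0.20, each with an unadjusted p under 0.05. Of all genes, this threshold took in 586 in the lower direction (3.08%) and 430 in the higher. Without wild-type animal 2, 23 of 39 lay below 0 and the median was -0.13, while Usp18 stood at -1.59. That animal gave the highest hippocampus library for 17 of 39 genes (43.6%), where it did so for 14.7% of all genes, and the lowest cerebellum library for 17 of 39 (43.6%), where it did so for 17.3%. For 7 genes it did both (Ddx58, Gbp2, Ifit1, Ifit3, Iigp1, Irgm1 and Xaf1).

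Markers of other cells also differed between the groups, without a test of their sums. In bulk tissue, fewer cells of a type and less RNA per cell cannot be told apart. Endothelium markers summed to 399 to 450 CPM in knockout hippocampus, against 476 to 521 CPM in wild-type hippocampus, and all 14 had a log2 fold change below 0 (median -0.22). Of the 14, 9 were lower at an edgeR unadjusted p under 0.05 (smallest adjusted p = 0.995), where 313 of all 17693 genes (1.77%) were. Meninges and fibroblast markers summed to 133 to 155 CPM in knockout hippocampus, against 146 to 290 CPM in wild-type hippocampus, with 16 of 17 below 0 and 5 lower at that threshold. Microglia markers overlapped in hippocampus, at 395 to 429 CPM in knockout and 386 to 441 CPM in wild type. In cerebellum they did not, at 173 to 190 CPM in knockout and 152 to 161 CPM in wild type, with 12 of 14 above 0 (median 0.12). Of these 14, 6 were higher at an edgeR unadjusted p under 0.05 (smallest adjusted p = 0.269), where 683 of all 17733 genes were. None of these markers was at 0 in any library. Brainstem markers summed to 58.3 to 103 CPM in knockout cerebellum, against 62.1 to 68.9 CPM in wild-type cerebellum, with 5 of 6 tested above 0. Their median log2 fold change was 1.88, with 4 of the 6 higher at an edgeR unadjusted p under 0.05 (smallest adjusted p = 0.628), against the same 683 of all 17733 genes. Choroid plexus markers summed to 26.6 to 1776 CPM in knockout cerebellum, against 1051 to 2663 CPM in wild-type cerebellum, with 7 of 7 below 0. The cerebellum of knockout animal 3 had 1 marker of each of these lists at 0. The part of all these markers in the differences of the interferon and class I genes was not tested. T cell markers were near 0, with 0 to 8 counts of Cd3e and 0 to 4 counts of Cd8a in a library. Trac, the T cell receptor alpha constant region, had 0.461, 0.247 and 0.241 CPM in knockout hippocampus, against 0.983, 0.988 and 0.748 CPM in wild-type hippocampus (unadjusted p = 0.0030, edgeR adjusted p = 0.995). Of 8 T and NK cell markers, Trac alone passed the count filter. In the cerebellum its log2 fold change was -0.17 (edgeR adjusted p = 0.904), with groups that did not overlap.

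**Figure D4:**
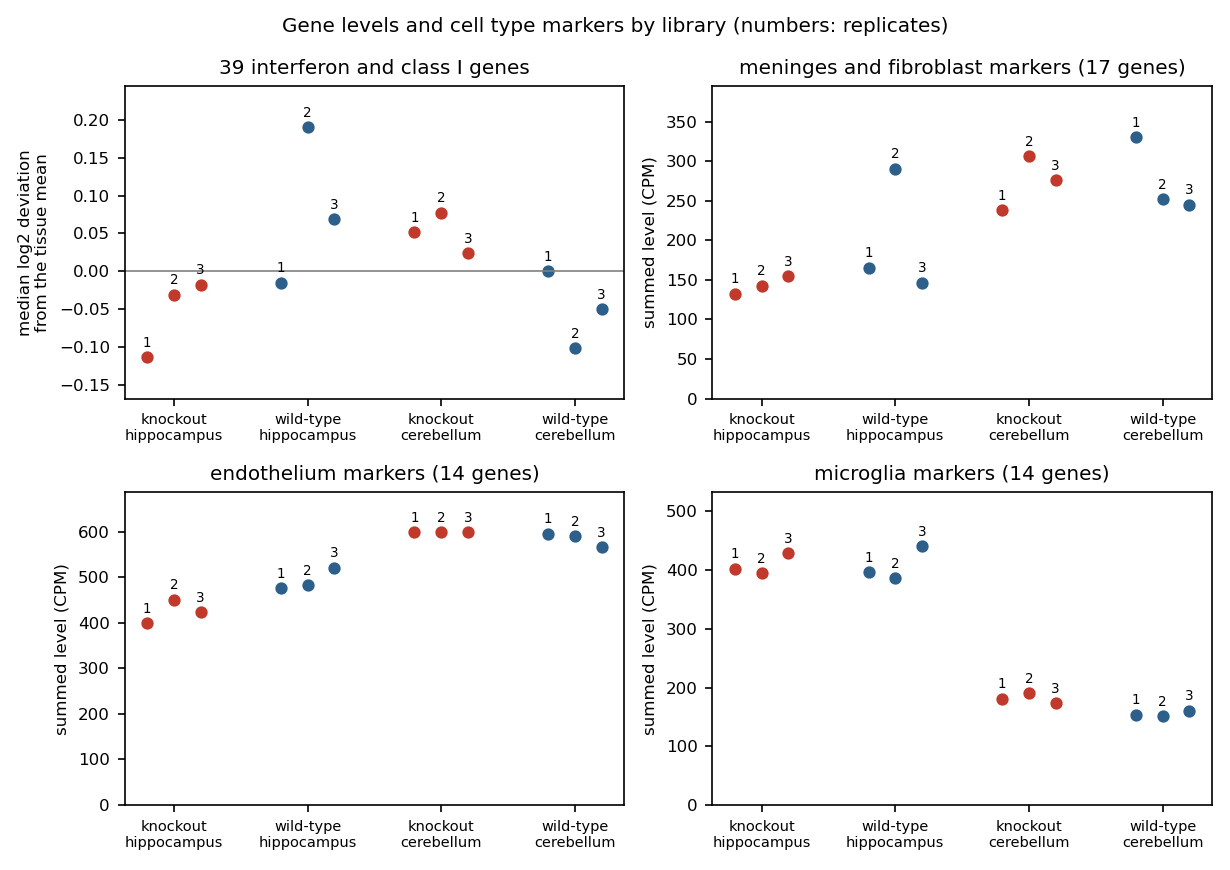
The first panel gives, for each library, the median over 39 genes of the log2 deviation from the mean of its tissue, and the others the summed level in CPM of meninges and fibroblast, endothelium and microglia markers, with knockout (red) left of wild type (blue) and replicate numbers beside the points. The hippocampus of wild-type animal 2 is highest in the first panel at 0.19 and has 290 CPM of meninges and fibroblast markers.

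Of the genes of the same pathways outside the 40, none was called by edgeR in either tissue. Of 49 tested among 61 other interferon-induced genes, 39 lay below 0 in the hippocampus (median -0.11), and of 50 tested 30 lay above 0 in the cerebellum (median 0.085). In the hippocampus the smallest unadjusted p of this list belonged to Pnpt1, an RNA-degrading enzyme of mitochondria, with 30.7, 32.0 and 30.5 CPM in knockout, against 26.3, 29.3 and 26.2 CPM in wild type, and to Shisa5, with 27.4, 29.3 and 33.9 CPM in knockout, against 32.5, 34.8 and 36.2 CPM in wild type. In the cerebellum they belonged to Gbp9, with 6.51, 5.59 and 6.51 CPM in knockout, against 4.63, 4.87 and 4.95 CPM in wild type, and to Irf8, a transcription factor of microglia and other myeloid cells, with 2.69, 2.96 and 2.52 CPM in knockout, against 1.66, 1.80 and 2.34 CPM in wild type.

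Of 14 tested receptors, kinases and their regulators, 10 lay below 0 in the hippocampus (median -0.03), and of 15 tested 12 did in the cerebellum (median -0.07). Tyk2, a receptor kinase, had 32.5, 29.0 and 27.1 CPM in knockout hippocampus, against 26.2, 28.7 and 24.4 CPM in wild-type hippocampus. In the cerebellum, Jak1, another receptor kinase, had 148, 149 and 152 CPM in knockout, against 163, 148 and 161 CPM in wild type, and Pias1, an inhibitor of interferon signalling, 70.2, 65.8 and 67.1 CPM in knockout, against 72.0, 70.6 and 73.1 CPM in wild type. Of 15 tested sensors and adaptors, 9 lay above 0 in the hippocampus and 5 in the cerebellum. Aim2, a sensor of DNA in the cytosol, had 5.75, 4.84 and 5.61 CPM in knockout hippocampus, against 3.62, 4.06 and 4.41 CPM in wild-type hippocampus, and Tlr9, which senses DNA in endosomes, 1.47, 1.31 and 1.51 CPM in knockout, against 1.65, 2.01 and 2.09 CPM in wild type. In the cerebellum Tlr7 had 2.06, 1.67 and 0.730 CPM in knockout, against 1.15, 1.05 and 1.15 CPM in wild type, and the adaptor Myd88 3.75, 4.90 and 4.61 CPM in knockout, against 3.72, 4.12 and 4.04 CPM in wild type.

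Of 21 tested class I and loading genes outside the 40, 16 lay below 0 in the hippocampus (median -0.06). H2-Q6, a class I gene of the Q region, had 0.294, 0.354 and 0.172 CPM in knockout hippocampus, against 0.472, 1.41 and 1.65 CPM in wild-type hippocampus, a log2 fold change of -2.09 ± 0.52 (unadjusted p = 0.0016, edgeR adjusted p = 0.995). It was called only when no filter on low counts was used (adjusted p = 0.0035), and reads of the near-identical Q genes could be split by the counting, so its level is uncertain. Fcgrt, the neonatal Fc receptor, had 11.0, 10.6 and 12.5 CPM in knockout hippocampus, against 13.0, 15.1 and 13.4 CPM in wild-type hippocampus. Of 20 tested in the cerebellum 12 lay above 0, with H2-T22 at 22.9, 22.8 and 20.9 CPM in knockout, against 18.8, 21.4 and 20.6 CPM in wild type, and Mr1, which presents metabolites, at 7.06, 8.82 and 7.87 CPM in knockout, against 9.30, 10.2 and 8.2 CPM in wild type. MHC class II genes, which present peptides to helper T cells, had 8 of 9 below 0 in the hippocampus (median -0.37). H2-Ab1 had 0.168, 0.424 and 0.654 CPM in knockout hippocampus, against 0.550, 2.32 and 0.197 CPM in wild-type hippocampus, and H2-Eb1 0.377, 0.990 and 1.17 CPM in knockout, against 1.06, 2.89 and 0.472 CPM in wild type. Both were above 0 without wild-type animal 2 (0.18 and 0.16). In the cerebellum, where 5 of 8 class II genes lay above 0, H2-DMb1 had 0.626, 0.783 and 0.631 CPM in knockout, against 1.27, 1.05 and 0.942 CPM in wild type, and Ctss, the protease cathepsin S, 24.9, 27.6 and 22.6 CPM in knockout, against 20.1, 22.6 and 23.03 CPM in wild type.

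The tissues differed far more than the genotypes. In wild-type animals, edgeR called 14 of the 39 genes between hippocampus and cerebellum (35.9%), where it called 66.1% of all genes, with 5 higher (33.1% of all genes) and 9 lower (33%) in hippocampus. In knockout animals it called 19 of the 39 (48.7%), where it called 64.1% of all genes, with 2 higher (31.6% of all genes) and 17 lower (32.5%). All 9 genes called lower in wild type were also called lower in knockout (Bst2, Dhx58, H2-D1, Ifit3, Ifit3b, Irf9, Lgals3bp, Stat2 and Tapbp), and they are 52.9% of the 17. Ifi27 and Psmb10 were called higher in both genotypes. With library totals in place of TMM factors, 2 members were called higher and 12 lower in wild type, where 4852 of all genes were called higher and 7607 lower. In knockout animals the same scaling called 2 members higher and 22 lower, where 4662 of all genes were called higher and 7572 lower. The difference between the genotypes in this tissue contrast is the difference of effects tested above, in which no member was called.

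H2-D1 had the largest fall of the 39 in both genotypes. It had 26.8, 34.2 and 35.1 CPM in wild-type hippocampus, against 121, 126 and 131 CPM in wild-type cerebellum, a log2 fold change of -1.97 ± 0.08 (3.93-fold lower; edgeR adjusted p = 2.6e-10). In knockout animals it was 4.89-fold lower (-2.29 ± 0.07). H2-K1, the other heavy chain, had 20.5, 26.3 and 23.1 CPM in wild-type hippocampus, against 24.3, 29.6 and 25.4 CPM in wild-type cerebellum (-0.18 ± 0.10; adjusted p = 0.127), and was called in knockout animals at -0.36 ± 0.09 (adjusted p = 0.0084). B2m had -0.048 ± 0.068 in wild type and was called at -0.32 ± 0.06 in knockout animals (adjusted p = 0.0018). Psmb10 was higher in hippocampus, at 17.6, 17.97 and 19.8 CPM in wild-type hippocampus, against 10.5, 9.69 and 9.57 CPM in wild-type cerebellum (0.90 ± 0.09; edgeR adjusted p = 1.7e-06).

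Stat2 fell most among the signalling genes, with 31.4, 37.1 and 27.6 CPM in wild-type hippocampus, against 107, 117 and 112 CPM in wild-type cerebellum (-1.81 ± 0.09; edgeR adjusted p = 8.8e-10). Its partner Irf9 had a smaller fall of -0.43 ± 0.12 (adjusted p = 0.0061). Dhx58 was the only sensor called, with 1.65, 1.79 and 0.748 CPM in wild-type hippocampus, against 2.81, 2.96 and 3.25 CPM in wild-type cerebellum (-1.10 ± 0.27; adjusted p = 0.0030). Dhx58 has an antisense gene, Dhx58os, with 18 counts over the hippocampus and 318 over the cerebellum libraries, against 216 and 554 of Dhx58 itself. Among the effectors, Ifit3b had 3.34, 4.98 and 2.83 CPM in wild-type hippocampus, against 8.15, 7.59 and 7.32 CPM in wild-type cerebellum (-1.04 ± 0.18; adjusted p = 0.00024), and Ifit2, another RNA-binding member of the family, 11.1, 10.8 and 9.52 CPM in wild-type hippocampus, against 7.64, 7.35 and 7.35 CPM in wild-type cerebellum (0.50 ± 0.11; adjusted p = 0.0014). In wild type, Ifit2 was thus called in the opposite direction to Ifit3 and Ifit3b, its neighbours on chromosome 19. In knockout animals Ifit3 and Ifit3b were again called lower, and Ifit2 was not called. Gbp7 was the GTPase called in wild type, with 5.66, 5.62 and 5.94 CPM in hippocampus, against 4.67, 3.96 and 4.53 CPM in cerebellum (0.40 ± 0.13; adjusted p = 0.020), and it lost the call when any 1 animal was left out.

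**Figure D5:**
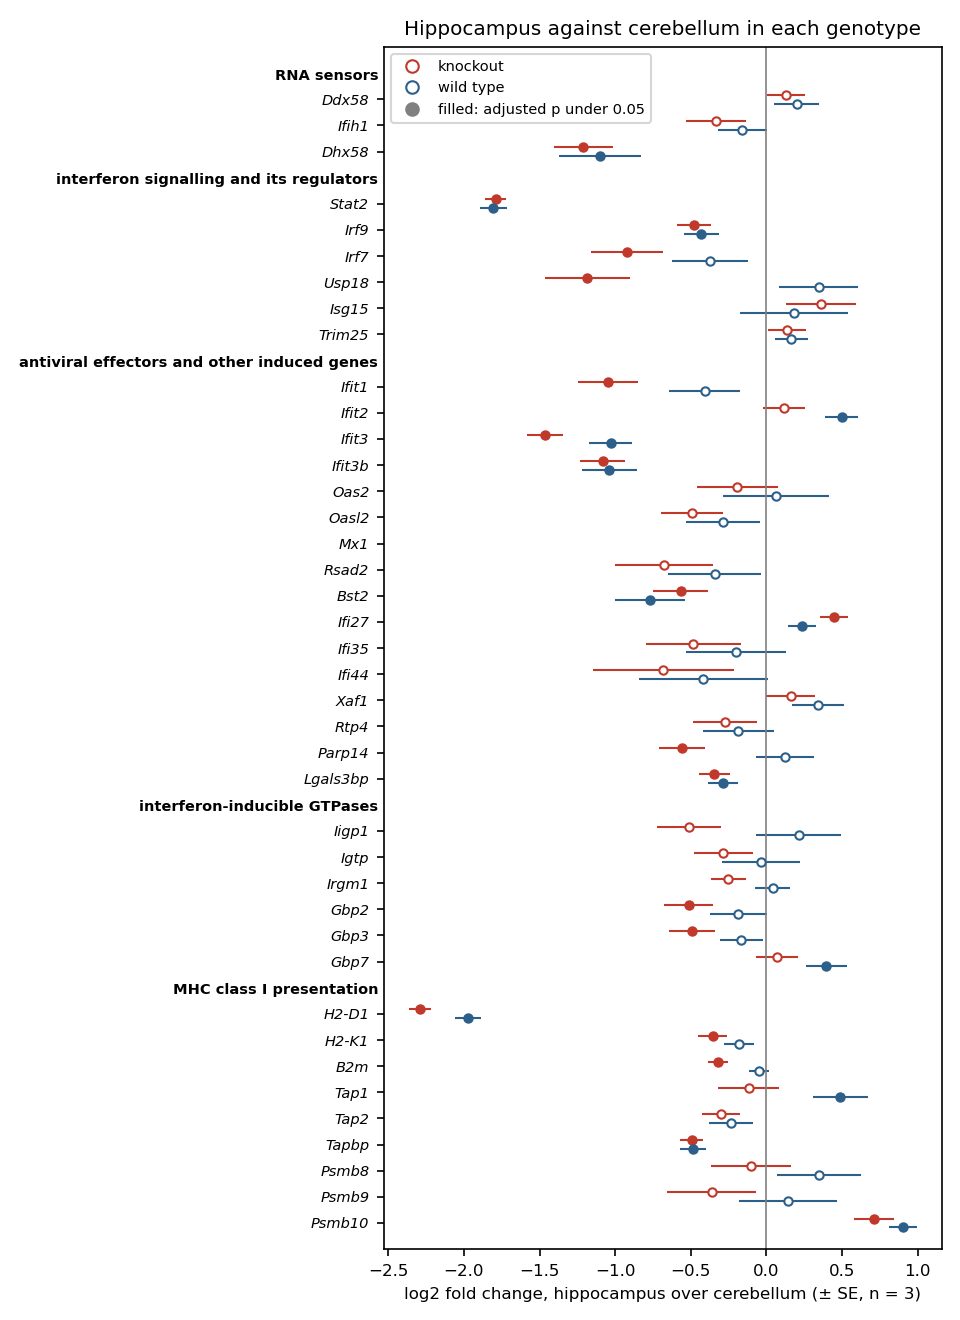
Points are log2 fold changes of hippocampus over cerebellum with SE (n = 3 against 3) in knockout (red) and wild type (blue), genes in rows by role, filled where the adjusted p was under 0.05; Mx1 was not tested. H2-D1 lies farthest below 0, at -2.29 in knockout and -1.97 in wild type, followed by Stat2, and Psmb10 farthest above 0.

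Genes with and without the exact repeated word in their promoter had medians of the same sign, and the difference between them was not tested. In the hippocampus the median log2 fold change of knockout over wild type was -0.16 over the 15 genes with the word and -0.19 over the 16 without it. In the cerebellum it was 0.097 over the 15 with it and 0.018 over the 16 without it.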

How the data were processed

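Per the extract protocol in the labels, poly(A) RNA was selected and strand-specific libraries were made with dUTP. The authors deposited raw counts per gene, 1 table per tissue. Tools named are featureCounts 2.0.3, STAR 2.7.10 and Trimmomatic 0.39, with mm10 and GRCm38 as builds, per the submitters' processing notes. Annotation release, strand setting and treatment of reads that map to several places were not given in the sources used here. Totals of these whole numbers differ from library to library, at 24355572 to 34971359.

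Identifiers were named from GENCODE M21 (54409 of 54446 matched). Libraries of 1 group were compared in pairs, and the chi-square per gene was 4.11 to 12.7, so none was a repeat of another. Each comparison was fitted over all genes with edgeR 4.0.16 in R 4.3.3: TMM factors, filterByExpr with a minimum count of 10 and a minimum total of 15, and a two-sided quasi-likelihood test with Benjamini-Hochberg adjustment, called at an adjusted p under 0.05. Each comparison used its own 6 libraries, and the difference of effects all 12. Levels are CPM scaled with TMM over 12 libraries, logs use CPM + 0.5, and means carry the SD and log2 fold changes the SE. The fits were tested on simulated counts with the same spread for all genes and no link between libraries of an animal, a simpler setting than these data. Python 3.11.15 with numpy 2.4.6, matplotlib 3.10.9 and pandas 2.3.3 made the tables and figures. Alternatives were DESeq2 1.42.0, limma-voom (limma 3.58.1), DESeq2 size factors in edgeR, library totals, no filter, the replicate number as a block, 1 fit of all 12 libraries, and leaving out each animal.

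The 40 genes, the lists and the alternatives were chosen with earlier results of these data known. Per-library values are given for the 3 genes of each role with the smallest unadjusted p in the hippocampus and the 2 in the cerebellum, for Usp18, H2-D1, H2-K1 and B2m, for the called gene of each role with the largest rise and fall between wild-type tissues, and for the 2 genes of each pathway list with the smallest p. A gene that this rule picks from a pathway list is not reported here. Any other named gene was chosen after its values were seen.

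The labels show that the same animal gave the hippocampus and cerebellum library of a number, so the tissue comparisons are paired. The reported fits of the tissue comparisons and of the difference of effects left this pairing out, and a block by animal was an alternative. Between genotypes, deviations of same-numbered cerebellum libraries correlated at 0.116, 0.218 and 0.306 across genes, although they come from different animals. Cerebellum pairs of unlike number ran from -0.300 to 0.091. Same-numbered hippocampus libraries had -0.0084, 0.023 and 0.110, and those of unlike number -0.074 to 0.058. Library pairs of the same animal had 0.018 to 0.127 between tissues.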

Additional observations from a re-analysis of the deposited data

Results flagged for a closer look

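Usp18 stood out because its groups separated in opposite directions in the tissues. Every knockout library lay below every wild-type library in the hippocampus and above every one in the cerebellum. A change of sign alone was common, since 31 of 39 genes lay below 0 in the hippocampus and 31 of 39 above 0 in the cerebellum. Usp18 rests on 148 counts over the hippocampus and 214 over the cerebellum libraries. The difference of the log2 fold changes, hippocampus minus cerebellum, was -1.52 ± 0.35 over 12 libraries (edgeR without an animal term, unadjusted p = 0.00066, adjusted p = 0.701). It thus fails the adjustment over all genes. Of 16593 genes, 84 (0.506%) separated in opposite directions.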

How the results depend on the processing

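No gene of the 40 passed the threshold in a genotype comparison or in the difference of effects under the settings tried, except H2-D1 in the hippocampus without a filter on low counts (1 gene called, adjusted p = 0.0264), where all genes called went to 77. Without that filter 417 of all genes were called in the cerebellum and 275 in the difference of effects, and without knockout animal 3 these counts were 33 and 56, against 2 in each as reported. With 1 animal left out, the hippocampus median of -0.17 ranged from -0.20 to -0.078 (lowest in size without wild-type animal 2), the cerebellum median of 0.085 from 0.043 to 0.156, and the median difference of -0.25 from -0.32 to -0.13. Between wild-type tissues, 9 to 14 genes of the 40 were then called and the median ranged from -0.22 to -0.018, with 9 without wild-type animal 1. All genes called were then 10283 of 18509 without wild-type animal 1, 11085 of 18168 without animal 2 and 10972 of 18303 without animal 3. Between knockout tissues 14 to 19 were called with 1 animal left out, 21 by limma-voom and 24 with library totals. All genes called there ran from 9487 of 18225 without knockout animal 2 to 11082 of 18270 without knockout animal 3. They were 11746 of 18200 by limma-voom and 12234 of 18200 with library totals. With library totals in place of TMM, which moves the median of all genes to -0.16, the medians were -0.30 in wild type and -0.50 in knockout animals, and without the filter the knockout median was -0.43.

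Signs turned mostly for small differences, but also for H2-Ab1 and H2-Eb1, which lay far below 0 in other settings. In the hippocampus, leaving out 1 animal gave -0.37 to 0.145 for Dhx58 (0.022 by limma-voom), -0.23 to 0.141 for Ifih1, -0.107 to 0.055 for Ddx58, -1.75 to 0.18 for H2-Ab1 and -1.20 to 0.16 for H2-Eb1. In the cerebellum it gave -0.112 to 0.035 for Tapbp, -0.036 to 0.131 for Ddx58, -0.074 to 0.019 for H2-D1 and -0.074 to 0.085 for H2-K1. Between knockout tissues it gave -0.017 to 0.25 for Ifit2 and -0.032 to 0.147 for Gbp7, and library totals gave -0.018 and -0.066. The cause was not tested. With the replicate block, no call of a gene of the 40 changed between genotypes and the cerebellum median was 0.050, while all genes called there went to 36, against 2 without it. Between wild-type tissues the block by animal called 15, against 14, while all genes called were 11948 of 18128, against 11986.

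Depth limits Mx1, Usp18, Oas2, Ifi44, Psmb9 and Isg15, each with a mean under 1 CPM in at least 1 group.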
